A study of Mus musculus with 6 samples.

Results

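The genes described here are 50 enzymes and regulators of the antioxidant defence of the liver: the NRF2 sensor pair, enzymes that make and recycle glutathione, the thioredoxin system, peroxidases, superoxide dismutases and glutathione transferases. They were chosen by symbol, and all 50 were found among the 25230 genes of the table. Of these, 49 had enough counts to be tested. The remaining gene, Ggt1, which breaks down extracellular glutathione, had 2 counts over the normal libraries and 0 over the lesion libraries, at or under the limit that 3 counts set, so no fold is given.

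The study compared 3 liver lesions with stacked glycogen, titled small tumours, with 3 normal regions beside such lesions. All came from male C57BL/6 mice given the carcinogen diethylnitrosamine (DEN) into the peritoneum at 25 mg/kg at the age of 14 days, so the normal regions are DEN-treated liver too. Both groups carry the time label of 7 months and the stage label early. Regions were cut from fixed, paraffin-embedded serial sections. No label ties a region to an animal, so p-values measure only the spread between these samples. They are too small if regions of the same group share a mouse. A lesion may also share a mouse with its own adjacent region, and the main test does not pair them.

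Glutathione is a tripeptide made in the cytosol by glutamate-cysteine ligase and glutathione synthetase, and hepatocytes hold it at high levels. Peroxidases spend it on peroxides, and transferases join it to reactive foreign compounds and lipid products. The transcription factor NRF2 is held in check by KEAP1, and when released it raises many of these genes through antioxidant response elements in DNA.

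The normal libraries held 6352898 to 6542997 counts and the lesions 7294716 to 7412833. The 50 genes took 0.975%, 0.998% and 1% of the counts in normal 1 to 3, and 1.19% in lesion 1 against 1.61% in lesion 3. Lesions 1 and 2 were close to each other, and lesion 3 stood apart from them on the second principal component (13% of the variance), so values are given for each lesion. Hepatocyte markers dominated every library, with sums over 9 genes of 78760 to 84150 CPM (counts scaled to a common library size) in the normal and 128623 to 150746 CPM in the lesion libraries. They did not rise as a set, since 4 rose and 3 fell. Alb, which encodes albumin, was the largest single part of the sum, with means of 34156 CPM in the normal and 82269 CPM in the lesion libraries. It took most of the sum in the lesions only. Cps1, a urea cycle enzyme, fell from 4996 to 2461 CPM. All 10 Kupffer cell markers fell, with sums of 964 to 1032 and 612 to 660 CPM. Of the bile duct markers, Spp1 rose from a mean of 17.8 to 123 CPM and Sox9 from 9.29 to 17.9 CPM, while Krt19, Krt7, Epcam and Cftr stayed under 1 CPM in both group means. Endothelial markers (749 to 755 and 635 to 697 CPM, 1 of 8 higher and 2 lower) and stellate and fibroblast markers (337 to 345 and 376 to 429 CPM, 3 of 8 higher and 1 lower) moved less in sum. The stellate and fibroblast sum hides opposite moves, since Col1a1 rose from a mean of 23.9 to 97.3 CPM and Lrat fell from 24.3 to 11.3 CPM. Lymphocyte markers summed to 43.8 to 45.6 and 33.6 to 36.1 CPM, with 1 of 2 tested lower. That gene, Ptprc, took most of the sum, with means of 37.5 and 27.2 CPM. The other tested gene, Cd3e, had means of 2.21 and 2.62 CPM and did not pass, so the sum stands mainly for Ptprc. Of the 5 red cell markers, Hba-a2, Hbb-bs and Hbb-bt were at 0 in every library, and the 1 tested, Alas2, fell from a mean of 112 to 55.1 CPM. The part of these shifts in the results was not tested, and in such tissue fewer cells of a type and less RNA per cell cannot be told apart.

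Among the 49 tested genes, 14 rose and 12 fell in the lesions (edgeR adjusted p under 0.05), while 23 did not pass. The rising share was 28.6% against 18.7% of all 12506 tested genes, and the falling share 24.5% against 18.4%. In either direction 37.1% of all genes were called. The lesions lay wholly beyond the normal libraries in 34 of the 49, against 48.2% of all tested genes. The median change over the 49 was 0.11 on the log2 scale, beside 0.00 over all tested genes. By role, 1 of 2 regulators, 2 of 4 other NRF2 targets, 2 of 5 tested synthesis and recycling genes and 3 of 6 thioredoxin genes rose, and 0 of these fell. Peroxidases and dismutases mostly fell, with 7 of 12 lower and 3 higher. The 20 transferases split, with 3 higher and 5 lower, and their median was 0.00 against 0.16 for the other 29 genes.

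These counts depended on single libraries. Without lesion 3, 21 genes rose and 19 fell (22% and 21.9% of all genes tested in that fit), and 7 transferases rose and 10 fell. That fit keeps lesions 1 and 2, the closest lesion libraries. On the lesion side, its adjusted p-values below hold only the small spread of that pair. They are too small if lesions 1 and 2 came from the same animal. Without normal 2, 8 genes rose and 10 fell (13.9% and 14% of all genes), and 1 transferase rose. Without normal 1 or normal 3, 2 transferases rose (14.7% and 14.6% of all genes rose in these fits). With limma-voom, or edgeR without its robust step, 7 transferases rose (18.1% and 18.6% of all genes rose). Scaling by library size alone moved the median of all genes to -0.14 and their calls from 2340 higher and 2296 lower to 1474 and 3615. Under it 12 of the 49 genes rose and 17 fell.

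**Figure D1:**
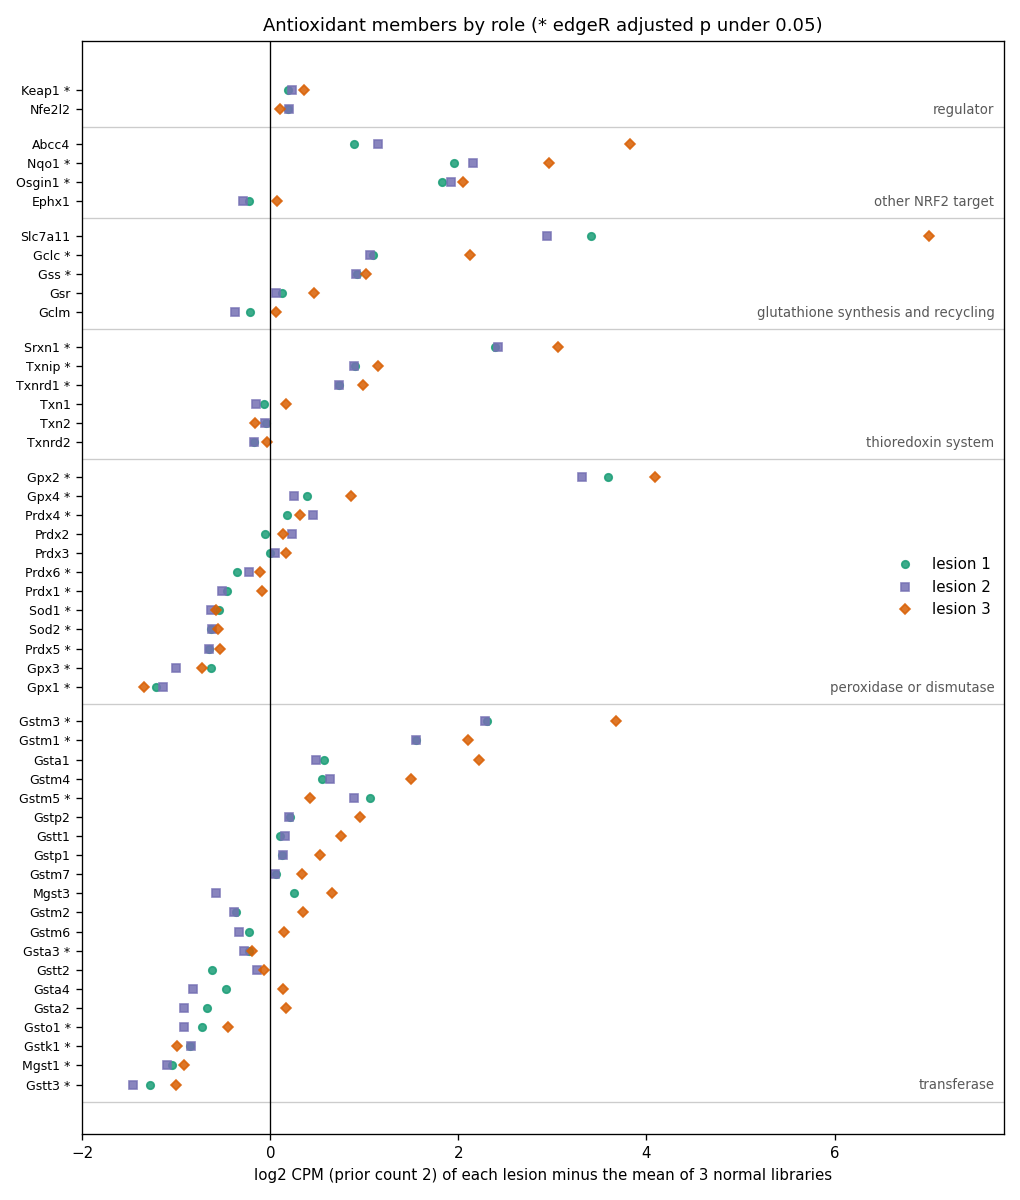
Difference of each lesion from the mean of the 3 normal libraries for the 49 tested genes, in log2 CPM (prior count 2, which shrinks the change of genes with few counts), grouped by role; circles, squares and diamonds are lesions 1, 2 and 3, and an asterisk marks an edgeR adjusted p under 0.05. Lesion 3 lies to the right of lesions 1 and 2 in 40 of the 49 genes.

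The sensor pair itself changed little. Nfe2l2, which encodes NRF2, was at 81.3, 89.7 and 78.5 CPM in normal 1 to 3 and at 94.4, 95.6 and 89.4 CPM in lesions 1 to 3. These ranges overlap by a narrow margin, and the log2 change of 0.16 (SE 0.0723) did not pass (edgeR adjusted p = 0.0827), although it did without lesion 3 (log2 0.19, edgeR adjusted p = 0.0169). Keap1, which marks NRF2 for degradation, went from 45.3, 45.5 and 45.9 CPM to 52.1, 53.8 and 58.4 CPM. All lesions were above all normal libraries for Keap1, and its rise of 0.26 (SE 0.0808) passed (edgeR adjusted p = 0.0147). That call was lost without normal 1 or normal 2 (edgeR adjusted p = 0.0511 and 0.0547), with DESeq2 (adjusted p = 0.0943) and under scaling by library size (log2 0.12, edgeR adjusted p = 0.235).

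Other genes known as NRF2 targets diverged. Osgin1, an oxidative-stress-induced growth inhibitor, stood at 121, 112 and 115 CPM in the normal libraries and at 411, 439 and 480.0 CPM in the lesions. It was the most even of the large rises, with every lesion far above every normal library (log2 1.93, SE 0.067, edgeR adjusted p = 4.12e-14). Nqo1 encodes the quinone reductase often used to read NRF2 activity. Its level went from 4.99, 5.14 and 5.38 CPM to 20.8, 23.9 and 42.3 CPM, highest in lesion 3 (log2 2.48, SE 0.348, edgeR adjusted p = 0.0022). Abcc4, an export pump of the basolateral hepatocyte membrane, was at 12.2, 10.6 and 13.2 CPM in the normal libraries and at 22.4, 26.7 and 173 CPM in the lesions. The 3 lesions were all above the normal libraries but far from each other, and the log2 change of 2.62 (SE 1.14) did not pass (edgeR adjusted p = 0.16). Without lesion 3 the Abcc4 change was 1.03 and passed (edgeR adjusted p = 2.62e-09), and in the authors' deposited table it was 2.63 with an adjusted p of 0.0229. Ephx1, the microsomal epoxide hydrolase, was at 354, 345 and 358 CPM against 300.4, 288 and 369 CPM (log2 -0.14, SE 0.0785, edgeR adjusted p = 0.173). Its lesions 1 and 2 lay below and its lesion 3 above all normal libraries. Ephx1 passed as lower without lesion 3 (log2 -0.26, edgeR adjusted p = 1.88e-06) and under scaling by library size (log2 -0.28, edgeR adjusted p = 0.00271).

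The short core of the antioxidant response element, TGACNNNGC on either strand, was looked for in the 300-base RefSeq promoters (GRCm38.p6, 250 bases before to 50 after the start). No other motif was searched. Promoters were found for 45 of the 50 genes. The core was present in 12 of these 45, beside 14% of all 27025 genes with a promoter in the table. It was found in 3 of 13 genes that rose, 4 of 11 that fell and 4 of 20 that did not pass, and Ggt1 held it too. The windows below are shown because they carry the core in genes that rose (Srxn1, Txnrd1, Gstm5), in a gene with its largest value in lesion 3 (Abcc4), in the ligase subunit that did not pass (Gclm) and in genes that fell (Prdx1, Mgst1). Each reads in the direction of its gene, with the core in capitals, written GCNNNGTCA where it lies on the opposite strand. The Txnrd1 window lies well inside its gene, which spans 82833951 to 82897724 on chromosome 10. Abcc4 has promoters numbered 1 and 2, and its window comes from promoter 2, which also lies inside the gene. Its promoter 1 (chr14:118706170-118706469) holds another core, GCGGGGTCA, at -25 from the start.
Srxn1, chr2:152105527-152105573, plus strand: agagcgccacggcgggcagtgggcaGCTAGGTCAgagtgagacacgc
Txnrd1, chr10:82859089-82859147, plus strand: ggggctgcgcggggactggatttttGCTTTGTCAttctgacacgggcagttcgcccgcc
Gstm5, chr3:107895787-107895845, plus strand: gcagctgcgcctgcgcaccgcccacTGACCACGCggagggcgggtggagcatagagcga
Abcc4, chr14:118676921-118676979, minus strand: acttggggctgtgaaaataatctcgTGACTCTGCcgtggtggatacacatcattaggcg
Gclm, chr3:122245398-122245456, plus strand: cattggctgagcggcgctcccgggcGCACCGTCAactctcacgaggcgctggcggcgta
Prdx1, chr4:116685441-116685499, plus strand: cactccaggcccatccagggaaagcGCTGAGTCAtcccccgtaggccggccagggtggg
Mgst1, chr6:138140446-138140504, plus strand: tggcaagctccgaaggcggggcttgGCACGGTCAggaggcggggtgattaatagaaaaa
No core was found in the windows of Nqo1, Osgin1, Slc7a11, Gss, Gstm1 or Gstm3, which says only that these letters are not in this stretch. The stretches searched for Osgin1 and Slc7a11 lie well inside their genes.

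In glutathione synthesis, the genes of the catalytic steps rose, and the modifier subunit did not pass with all libraries. Gclc (Entrez 14629, chromosome 9, 77754535 to 77794489), the catalytic subunit of glutamate-cysteine ligase, was at 201, 205 and 197 CPM in the normal libraries and at 430.4, 420.5 and 878 CPM in the lesions. All lesions were above all normal libraries, and lesion 3 was set apart from the others (log2 1.52, SE 0.364, edgeR adjusted p = 0.0364). The Gclc call was lost without any 1 normal library (edgeR adjusted p = 0.119 each time) and when lesion 1 or 2 was left out (0.0563 and 0.0531), and it held without lesion 3 (log2 1.08, edgeR adjusted p = 5.61e-31). Gclm, the modifier subunit of the same ligase, was at 112, 126 and 112 CPM and at 100.3, 89.9 and 122 CPM (log2 -0.17, SE 0.0979, edgeR adjusted p = 0.205). Gclm passed as lower without lesion 3 (log2 -0.30, edgeR adjusted p = 0.000122) and under scaling by library size (log2 -0.31, edgeR adjusted p = 0.00953). Per length, the ratio of Gclc to Gclm in FPKM (fragments per kilobase of transcript, scaled to library size) was 1.02, 0.929 and 1.01 in the normal libraries and 2.45, 2.67 and 4.11 in the lesions. The ratio did not overlap between groups (exact permutation test, two-sided p = 0.1, the smallest that 3 against 3 allows). Gss, which adds glycine to finish glutathione, rose evenly, from 47, 45.5 and 50.9 CPM to 90.6, 90.2 and 96.7 CPM (log2 0.95, SE 0.0759, edgeR adjusted p = 5.59e-09).

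Cystine uptake and recycling of glutathione gave less uniform values. Slc7a11 encodes the cystine transporter xCT, which is low in normal hepatocytes. It had 4, 5 and 6 counts in normal 1 to 3 and 74, 54 and 894 counts in lesions 1 to 3. Every lesion was above every normal library, but the lesions spread so widely that the log2 change of 6.03 (SE 2.29) did not pass (edgeR adjusted p = 0.118). Without lesion 3 the change was 3.58 (SE 0.329) and passed (edgeR adjusted p = 1.13e-14). Over the summed counts the lesions were 65.9-fold higher (exact 95% interval 39.8 to 118, counting error only), most of it from lesion 3. Gsr, the reductase that recycles oxidised glutathione, stood at 71, 70.2 and 70 CPM in the normal libraries and at 76.9, 73.5 and 97.6 CPM in the lesions (log2 0.23, SE 0.0924, edgeR adjusted p = 0.0599). Gsr passed without lesion 1 or lesion 2 (log2 0.29 and 0.31, edgeR adjusted p = 0.042 and 0.0191), and without lesion 3 its change was 0.09 (edgeR adjusted p = 0.29).

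**Figure D2:**
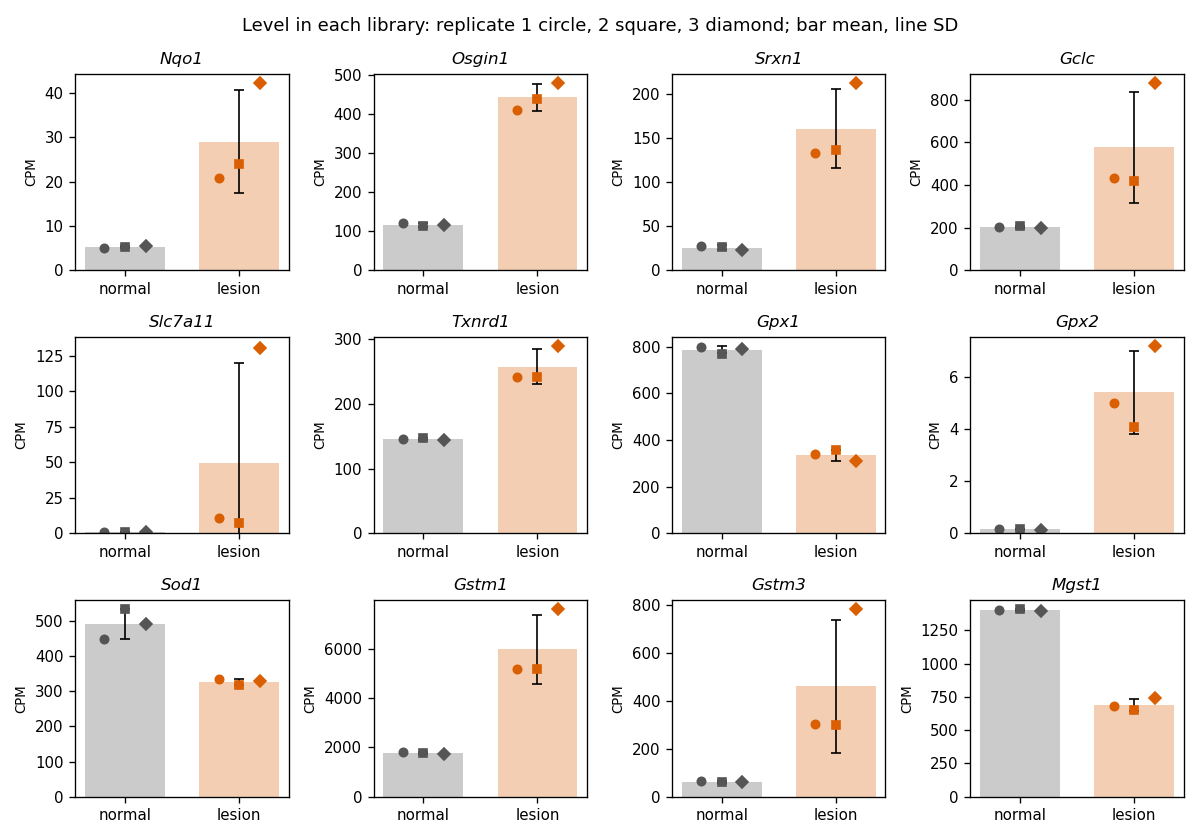
CPM of 12 genes in each library on axes that start at 0; bars are means, lines are the SD over 3 libraries (cut at 0 for Slc7a11), and circles, squares and diamonds are replicates 1, 2 and 3. Normal libraries lie close together, lesion 3 is far above lesions 1 and 2 for Slc7a11, Gclc and Gstm3, and the lesions are close together for Osgin1, Gpx1 and Sod1.

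In the thioredoxin system, genes of repair and control rose while the thioredoxins did not. Srxn1 (Entrez 76650, chromosome 2, 152105524 to 152111376), whose promoter window is printed above, encodes sulfiredoxin, which rescues over-oxidised peroxiredoxins. It went from 27.4, 26.3 and 22.4 CPM to 133, 136 and 212 CPM (log2 2.66, SE 0.259, edgeR adjusted p = 0.0016). Txnrd1, the cytosolic thioredoxin reductase, went from 145, 147 and 144 CPM to 242, 242 and 289 CPM (log2 0.82, SE 0.0701, edgeR adjusted p = 1.52e-08). Txnip, an inhibitor of thioredoxin that is also known to respond to glucose, went from 68.9, 71.4 and 69.7 CPM to 131, 130.1 and 156 CPM (log2 0.99, SE 0.0764, edgeR adjusted p = 3.73e-09). For these 3 genes the groups were well apart and lesion 3 was the highest library. The cytosolic thioredoxin Txn1 had 95.7 to 102 CPM in the normal and 88.4 to 110.2 CPM in the lesion libraries (log2 -0.01, SE 0.0785, edgeR adjusted p = 0.912). The mitochondrial pair, Txn2 (log2 -0.09, SE 0.0756) and its reductase Txnrd2 (log2 -0.13, SE 0.122), did not pass either (edgeR adjusted p = 0.378 and 0.446). Txn2 ran from 79.5 to 92.1 CPM in the normal and from 75.2 to 81.9 CPM in the lesion libraries, and Txnrd2 from 17.1 to 19.3 CPM and from 16.2 to 17.9 CPM, so both overlapped between groups.

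Peroxide and superoxide removal went the other way, at its most abundant genes. Gpx1 (Entrez 14775, chromosome 9, 108339080 to 108340342), the main selenium-dependent glutathione peroxidase of the liver, fell from 799.9, 770.0 and 789.8 CPM to 338, 357 and 310.1 CPM. Lesion 3 was here the lowest library (log2 -1.23, SE 0.0601, edgeR adjusted p = 4.52e-12). The cytosolic superoxide dismutase Sod1 fell from 450.0, 534 and 493 CPM to 336, 318 and 329.8 CPM (log2 -0.59, SE 0.0637, edgeR adjusted p = 5.02e-07). Mitochondrial Sod2 fell from 169, 169 and 168 CPM to 109, 109 and 115 CPM (log2 -0.60, SE 0.0613, edgeR adjusted p = 2e-07). For both dismutases the 3 lesions lay within a narrow band below all normal libraries, and 23.1% of the Sod1 and 22.2% of the Sod2 stretches of 50 bases occur in other genes. Prdx5, a peroxiredoxin of mitochondria and peroxisomes, fell from a range of 88.3 to 91.6 CPM to one of 57 to 61.8 CPM (log2 -0.61, edgeR adjusted p = 1.49e-06).

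Smaller falls were less firmly set. Prdx1, the main cytosolic peroxiredoxin, was at 242, 253 and 227 CPM and at 175, 168 and 227 CPM, so lesion 3 almost reached the lowest normal library (log2 -0.34, edgeR adjusted p = 0.0301). Leaving out normal 1, normal 2, lesion 1 or lesion 2 ended its call (edgeR adjusted p from 0.0657 to 0.101), and without lesion 3 the change was -0.49. Prdx6, which also acts on oxidised phospholipids, fell from 365, 387 and 396 CPM to 299.7, 328 and 356 CPM (log2 -0.22, edgeR adjusted p = 0.0105). The Prdx6 call was lost without normal 2, normal 3 or lesion 1 (edgeR adjusted p from 0.0578 to 0.0961). Gpx3, the secreted plasma form made mostly by kidney, was low, at 3.82 to 5.38 CPM and 2.24 to 2.99 CPM (log2 -0.85, SE 0.269, edgeR adjusted p = 0.0176). Its call was lost without normal 1, normal 3 or lesion 2 (edgeR adjusted p from 0.068 to 0.0764) and with DESeq2 (adjusted p = 0.0934).

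Gpx2, Gpx4 and Prdx4 rose. Gpx2, the glutathione peroxidase of the gut lining, had 1 count in each normal library and 35, 29 and 49 counts in lesions 1 to 3. Over the summed counts the lesions were 36.4-fold higher (exact 95% interval 12.2 to 179.3, counting error only), and the change passed (edgeR adjusted p = 1.25e-07). At 5.02 ± 1.5 FPKM (SD, n = 3) its level in the lesions was still far under that of Gpx1, at 317 ± 21.4 FPKM. The pseudogene Gpx2-ps1 also holds 18.9% of the Gpx2 stretches of 50 bases, which leaves the Gpx2 count less certain. Gpx4, which reduces lipid peroxides in membranes, went from 63.9, 58 and 62.3 CPM to 80.5, 72.9 and 111 CPM (log2 0.52, SE 0.157, edgeR adjusted p = 0.0366). Its call was lost without any 1 normal library (edgeR adjusted p from 0.0984 to 0.112), and without lesion 3 its change was 0.32. Of the stretches of 50 bases in Gpx4 transcripts, 39% also occur in the pseudogene Gpx4-ps2, so its count is uncertain. Prdx4, the peroxiredoxin of the endoplasmic reticulum, went from 22.1 to 25.8 CPM up to 27.6 to 33.6 CPM (log2 0.32, edgeR adjusted p = 0.026). The Prdx4 call was lost without normal 2, normal 3 or lesion 2 (edgeR adjusted p from 0.0553 to 0.131), with DESeq2 (adjusted p = 0.125) and under scaling by library size (log2 0.18, edgeR adjusted p = 0.197). Cytosolic Prdx2, at 37.9 to 42 CPM and 38.5 to 46.9 CPM, and mitochondrial Prdx3, at 51.1 to 56.4 CPM and 53.7 to 60.4 CPM, overlapped between groups and did not pass (log2 0.11 and 0.07, edgeR adjusted p = 0.401 and 0.514).

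Among the transferases, the rise lay in the mu class and was carried by its most abundant gene. Gstm1 (Entrez 14862, chromosome 3, 108012250 to 108017973) went from 1799, 1771 and 1742 CPM to 5188, 5168 and 7603 CPM (log2 1.76, SE 0.185, edgeR adjusted p = 0.00225). No lesion came near a normal library. Gstm3 went from 64.1, 58.9 and 60 CPM to 303, 299 and 782 CPM, with lesion 3 far above the others (log2 2.92, SE 0.523, edgeR adjusted p = 0.0156). The Gstm3 call was lost without any 1 normal library (edgeR adjusted p from 0.0663 to 0.0713), and without lesion 3 it held at 2.30 (edgeR adjusted p = 1.42e-43). Gstm5, a minor mu gene here, went from 2.79 to 3.48 CPM up to 6.98, 6.16 and 4.39 CPM in lesions 1 to 3 (log2 0.87, SE 0.252, edgeR adjusted p = 0.0105). It was the 1 gene of the 49 in which lesion 3 was lower than the mean of the other lesions by more than 0.5 on the log2 scale. Leaving out normal 2 or lesion 1 ended the Gstm5 call (edgeR adjusted p = 0.0554 and 0.0615), as did fitting with DESeq2 (adjusted p = 0.061).

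The remaining mu genes did not pass with all libraries. Gstm4 was at 27.8, 30.1 and 32 CPM and at 43.9, 46.8 and 85.2 CPM (log2 0.96, SE 0.326, edgeR adjusted p = 0.0873). It passed with DESeq2 (adjusted p = 0.0154), and without lesion 3 at a smaller change of 0.60 (edgeR adjusted p = 3.23e-07). Gstm2 was at 58.3, 64.5 and 64.9 CPM in the normal libraries and at 48.6, 47.9 and 79.5 CPM in the lesions. Lesions 1 and 2 lay below all normal libraries and lesion 3 above them. The Gstm2 change was -0.10 with all libraries (edgeR adjusted p = 0.784) and -0.38 without lesion 3 (edgeR adjusted p = 8.02e-05). With lesion 3 alone against the normal libraries, an alternative chosen after seeing the data, it was 0.35. No p-value is given for that fit, which has 1 lesion library. Gstm6, at 51 to 54.3 CPM and 41.9 to 58.4 CPM (log2 -0.12), and Gstm7, at 26 to 28.9 CPM and 28.1 to 34.4 CPM (log2 0.16), overlapped between groups and did not pass (edgeR adjusted p = 0.394 and 0.266). Without lesion 3, Gstm6 passed as lower (log2 -0.28, edgeR adjusted p = 0.00516). All 7 mu genes lie side by side on chromosome 3, in the order Gstm5, Gstm7, Gstm6, Gstm3, Gstm2, Gstm1 and Gstm4 by coordinate, so the strongly raised Gstm3 and Gstm1 flank Gstm2. Part of their sequence is shared, since 28.8% of the Gstm3 and 18.9% of the Gstm1 stretches of 50 bases occur in other genes, among them pseudogenes, which leaves those counts less certain.

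The 5 transferases that fell belong to other classes. Mgst1 (Entrez 56615, chromosome 6, 138140527 to 138156755), the membrane-bound form of the endoplasmic reticulum and outer mitochondrial membrane, fell from 1404, 1409 and 1399 CPM to 681, 654 and 742 CPM (log2 -1.02, SE 0.0567, edgeR adjusted p = 2.86e-11). Gstt3, of the theta class, fell from 30.8, 31.7 and 27.2 CPM to 12.1, 10.6 and 14.8 CPM (log2 -1.26, SE 0.13, edgeR adjusted p = 2.57e-07). The Gstt3 count is less certain, since 18.1% of its stretches of 50 bases occur in other genes, mostly Gm20441. Gstk1, the kappa form of mitochondria and peroxisomes, fell from 55.9, 60.4 and 59 CPM to 32.2, 32.3 and 29.1 CPM (log2 -0.90, edgeR adjusted p = 7.38e-08). Gsto1, an omega form with thioltransferase activity, fell from 35.8, 30.8 and 30.4 CPM to 19.4, 16.9 and 23.6 CPM (log2 -0.70, edgeR adjusted p = 0.000165). Gsta3, the most abundant alpha gene here and known in mice for conjugating the aflatoxin epoxide, fell slightly, from 723, 765 and 769 CPM to 644, 619.9 and 658 CPM (log2 -0.23, SE 0.0544, edgeR adjusted p = 0.00223). Leaving out normal 2 and lesion 2 together ended the Gsta3 call (edgeR adjusted p = 0.128), as did summing the closest libraries of each group (edgeR adjusted p = 0.0919). In all 5 the lesions lay below every normal library.

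Pi and alpha genes that did not pass depended on lesion 3. Gstp1, whose rat counterpart is a classical marker of early liver foci, was at 727, 749 and 788 CPM and at 823, 829 and 1086 CPM (log2 0.27, SE 0.106, edgeR adjusted p = 0.0794). Its neighbour Gstp2 was at 387, 402 and 431 CPM and at 471, 467 and 789 CPM (log2 0.50, SE 0.255, edgeR adjusted p = 0.211). Every lesion was above every normal library for both. Gstp1 passed in several alternatives, among them DESeq2 (adjusted p = 0.0268), limma-voom (adjusted p = 0.0338) and upper quartile scaling (edgeR adjusted p = 0.0436). Without lesion 3 both passed with smaller changes of 0.13 and 0.21 (edgeR adjusted p = 0.00687 and 7.35e-05). The pair shares 46% of the Gstp1 and 44.7% of the Gstp2 stretches of 50 bases, so their separate counts are uncertain. Their sum was 1114, 1151 and 1219 CPM in the normal libraries and 1294, 1296 and 1875 CPM in the lesions. Gsta1 was at 14.2, 14.8 and 12.6 CPM and at 20.8, 19.6 and 65.6 CPM (log2 1.34, SE 0.645, edgeR adjusted p = 0.192). Without lesion 3 its change was 0.54 and passed (edgeR adjusted p = 0.000776). Its count is uncertain, since 89.7% of its stretches of 50 bases occur in other genes, mostly Gm3776.

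Gsta2 and Gsta4 each had lesions 1 and 2 below and lesion 3 above all normal libraries. Gsta2 had 22.5 to 24.8 CPM in the normal libraries and 14.8, 12.5 and 26.6 CPM in the lesions, and Gsta4 had 38.9 to 41.3 CPM and 28.8, 22.5 and 44.2 CPM. Neither passed with all libraries (edgeR adjusted p = 0.316 and 0.351), and 49.8% of the Gsta2 stretches of 50 bases occur in other genes, so its count is uncertain too. Without lesion 3 the changes were -0.80 and -0.65 (edgeR adjusted p = 7.99e-07 and 4.01e-07). Gstt1, a theta form known for acting on small halogenated compounds, was at 73.8, 83.4 and 86.9 CPM and at 87, 90.5 and 137 CPM, with lesion 3 apart (log2 0.36, edgeR adjusted p = 0.248). Gstt2 was at 16 to 19.3 CPM and 11.5 to 17 CPM, and Mgst3 at 1.66 to 4.26 CPM and 1.96 to 4.98 CPM, so their groups overlapped (log2 -0.27 and 0.10, edgeR adjusted p = 0.169 and 0.857).

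Per length, the summed transferase level rose and its makeup shifted to the mu class. The sum was 4756, 4840 and 4898 FPKM in the normal libraries and 7169, 7093 and 10470 FPKM in the lesions. Gstm1 made up 28.1 ± 0.843% of this sum in the normal libraries and 55.6 ± 0.201% in the lesions (SD, n = 3), nearly the same share in each lesion although lesion 3 held more. The share of Mgst1 went from 20.5 ± 0.325% to 6.07 ± 0.919% and that of the pi pair from 31.9 ± 1.02% to 24 ± 0.183%. In FPKM the normal order was Gstm1 (1358 ± 20.7), Gstp1 (1006 ± 41.6) and Mgst1 (991 ± 4.37), the last pair within their spread. In the lesions it was Gstm1 (4586 ± 1086), Gstp1 (1216 ± 204) and Gstp2 (759 ± 246). The summed level of the 12 peroxidase and dismutase genes went from 2079 ± 57.9 to 1328 ± 38.3 FPKM, that of the 6 synthesis and recycling genes from 161 ± 3.87 to 289.9 ± 94 FPKM, and that of the 6 thioredoxin genes from 237 ± 7.64 to 331 ± 36.7 FPKM. Each of these sums was apart between groups, at the smallest exact two-sided permutation p of 0.1, while the alpha sum (p = 0.4) and the theta sum (p = 0.9) were not.

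**Figure D3:**
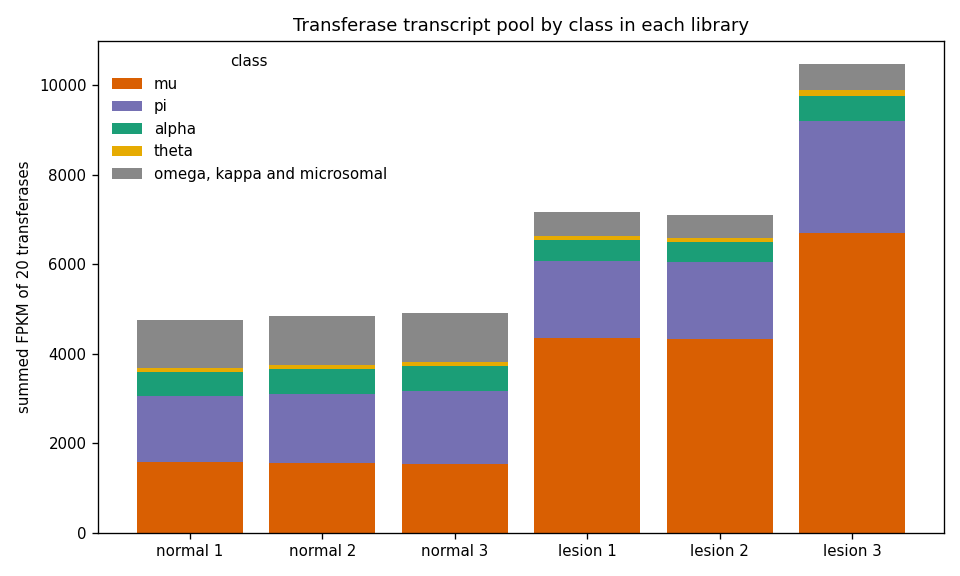
Summed FPKM of the 20 transferases in each library, stacked by class from an axis that starts at 0. The mu class grows from a mean of 1553 to 5126 FPKM, while the omega, kappa and microsomal classes shrink from 1084 to 542 FPKM.

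Lesion 3 was the highest of the lesions in 40 of the 49 tested genes (81.6%), beside 38% of all tested genes. It was the highest in 18 of 20 transferases and in all 5 tested synthesis and recycling genes. In 5 of the 49 genes (10.2%) it exceeded the mean of lesions 1 and 2 by more than 1 on the log2 scale, beside 1.06% of all genes: Slc7a11 (3.83), Abcc4 (2.81), Gsta1 (1.68), Gstm3 (1.38) and Gclc (1.05). Of 25 genes above the normal mean in lesions 1 and 2, 22 were higher still in lesion 3. Of 22 genes below the normal mean in lesions 1 and 2, 7 were above it in lesion 3, namely Ephx1, Gclm, Txn1, Gsta2, Gsta4, Gstm2 and Gstm6. By role, the median difference of the transferases from the normal mean was -0.08, -0.21 and 0.34 in lesions 1 to 3, and that of the peroxidases and dismutases was -0.40, -0.37 and -0.10. The synthesis and recycling genes had medians of 0.92, 0.91 and 1.01, and the thioredoxin genes 0.35, 0.34 and 0.58. Lesion 3 is a single library, so no test sets it against the others. Cell type markers, picked here after their values were seen, also differed in it. It held more Spp1 (146 CPM against 114 and 111 in lesions 1 and 2), Alb (95287 against 76252 and 75267), Reln (164 against 88.3 and 81.2) and Dcn (73.3 against 40.2 and 40.7). It held less Marco (83.7 CPM against 128 and 130.2) and Col1a1 (59.3 against 107.7 and 125). These single genes do not stand for their lists. The summed Kupffer cell markers were highest in lesion 3 (660 CPM against 621 and 612), unlike Marco. The hepatocyte marker Ahsg was lower there (8890 CPM against 9525 and 9985), unlike Alb. The part of cell type markers in these values was not tested.

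**Figure D4:**
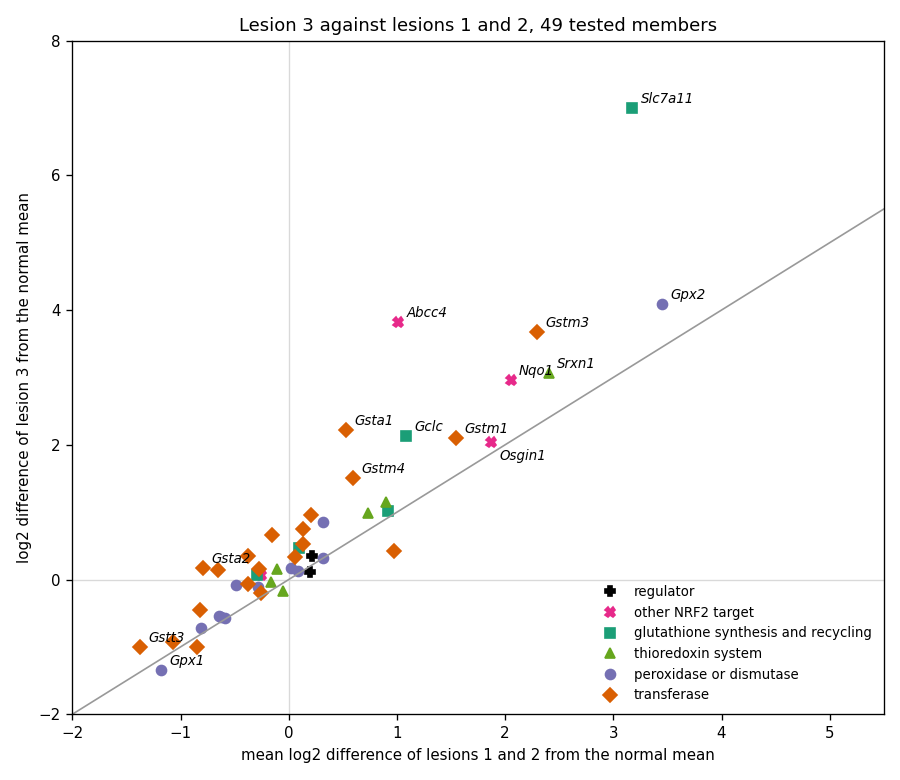
Difference of lesion 3 from the normal mean against the mean difference of lesions 1 and 2, both in log2 CPM, for the 49 tested genes with a marker for each role and a line of equality. Slc7a11, Abcc4, Gsta1, Gstm3 and Gclc lie more than 1 above the line, while Gpx1 and Gstm5 lie under it.

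A wider list of 61 glutathione and redox genes holds none of the 50. Besides glutathione, thioredoxin and NADPH supply, it covers haem, ferritin, glyoxalase and methionine cycle genes, among others. It had 55 tested genes. Of these, 10 rose (18.2%, near the 18.7% of all tested genes) and 18 fell (32.7%, beside 18.4% of all). The genes that rose with the lowest p were Pgd, an NADPH-producing enzyme of the pentose phosphate pathway (log2 1.71, edgeR adjusted p = 5.76e-11), Maff, a small partner of NRF2 (2.68, 3.87e-10), Abcc2, the canalicular pump for glutathione conjugates (0.62, 3.99e-08), and Bach1, a repressor that competes with NRF2 (0.74, 1.13e-07). The genes that fell with the lowest p were Cth, which releases cysteine from cystathionine (log2 -1.37, edgeR adjusted p = 2.86e-11), Ahcy (-0.89, 2e-10), Bhmt (-0.87, 2.21e-10) and Cbs, which makes cystathionine (-0.78, 3.73e-09). Named outside that rule after their values were seen, the carbonyl reductase genes Cbr3 and Cbr1 rose (log2 4.96 and 1.60, edgeR adjusted p = 0.00705 and 0.00778), while Hmox1, the haem oxygenase often counted with the NRF2 targets, fell by 0.45 in log2 (edgeR adjusted p = 7.15e-05) and catalase (Cat) fell by 0.45 too (edgeR adjusted p = 0.00187).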

How the data were processed

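RNA depleted of ribosomal RNA was sequenced from 6 dissected liver regions. The authors deposited whole-number counts and FPKM values, both per Entrez gene. The authors' deposited table of their own comparison adds a mean signal of scaled counts, log2 fold changes, a test score and p-values. The submitters' processing notes list CASAVA 1.8, cutadapt 1.18, STAR 2.5.2b, DESeq2 1.24.0 and the build mm10, without roles or order. How reads were counted, on which annotation and with which strand setting is not given in the sources used here. No molecular identifiers are named, so intervals cover counting error only.

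Counts were tested with edgeR 4.0.16 in R 4.3.3 by the quasi-likelihood test (robust, two-sided), after filterByExpr and TMM scaling, on the group alone, with Benjamini-Hochberg adjustment over 12506 genes and a threshold of 0.05. The SE of a log2 change is the change divided by the square root of F. CPM use TMM-scaled library sizes, differences of single lesions use log2 CPM with a prior count of 2, and levels between genes use the deposited FPKM. Coordinates and promoters are RefSeq's for GRCm38.p6, the assembly behind mm10. Stretches of 50 bases shared between genes were counted in GENCODE M21 transcripts.

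No pair of libraries was identical. Normal 2 and 3, and lesions 1 and 2, were the closest pairs (chi-square per degree of freedom 1.37 and 1.57, against 3.17 to 11.3 for other pairs within a group), and each was kept as a sample. The labels do not say whether they share an animal, and 17 of the 26 calls passed when each pair was summed.

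The 50 genes and the lists were chosen with earlier results of these data known. All 50 may be named. Of the wider list, the 4 genes with the lowest p in each direction are named, with exceptions said in the text. Of the hepatocyte markers listed, 1 was not matched by symbol. The summed level of the bile duct markers is not reported here. Alternatives were RLE, upper quartile and library size scaling, other count filters, a table without small and ribosomal RNA, DESeq2 1.42.0, limma-voom (limma 3.58.1), a fit without the robust step, limma on log2 FPKM with pseudocounts of 1 and 0.1, a replicate block, a threshold of 0.01 and leaving out libraries.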

Additional observations from a re-analysis of the deposited data

How the results depend on the processing

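Of the 26 calls among the 49 genes, 16 passed in each of the alternatives with more than 1 lesion library (Nqo1, Osgin1, Gss, Txnrd1, Txnip, Srxn1, Gpx1, Gpx2, Prdx5, Sod1, Sod2, Gstm1, Gstt3, Gsto1, Gstk1 and Mgst1). No called gene changed direction in any of the 25 alternatives. The cause of the differences below was not tested. From 14 genes higher, a threshold of 0.01 left 8 and summing the closest libraries of each group (chosen after seeing the data) left 8. The share of all tested genes called higher moved too, from 18.7% to 12.4% and 12.2%. Lesion 3 alone against the normal libraries (also chosen after seeing the data) has 1 lesion library, so only its changes are given. With libraries or replicate numbers left out, 8 to 21 genes were higher and 8 to 19 lower, while 10.7% to 22% of all genes were higher and 10.8% to 21.9% lower. From 3 transferases higher, limma-voom and the fit without the robust step gave 7 each, the threshold of 0.01 and the summed libraries 1 each, lesion 3 alone 9, and left-out libraries 1 to 7, with 4 to 10 transferases lower. The transferase median, 0.00, was 0.35 with lesion 3 alone, -0.14 under scaling by library size and -0.24 to 0.12 with libraries left out, lowest without lesion 3. The median of the other genes, 0.16, was 0.026 under scaling by library size, 0.13 with no count filter, 0.10 with DESeq2 and 0.093 to 0.22 with libraries left out. Genes that did not pass changed sign as follows. Under scaling by library size, Prdx2 was at -0.033, Prdx3 at -0.067 and Mgst3 at -0.041. With the closest libraries summed, Txn1 was at 0.036 and Gstm2 at 0.027. With lesion 3 alone, Ephx1 was at 0.075, Gclm at 0.071, Txn1 and Gsta2 at 0.17, Gsta4 at 0.15, Gstm2 at 0.35 and Gstm6 at 0.16. With libraries left out, Txn1 ran from -0.11 to 0.057, Txn2 from -0.15 to 0.011, Gstm2 from -0.38 to 0.056 and Mgst3 from -0.25 to 0.63. The design text says that each lesion has its own adjacent region, but the replicate numbers are not said to pair them, and same-numbered libraries did not deviate together (r = 0.011, -0.021 and -0.022 over 12506 genes). A replicate block gave 16 genes higher and 12 lower, while 18.3% of all genes were higher and 17.9% lower. It gave 5 transferases higher and kept 24 of the 26 calls, losing Gclc (edgeR adjusted p = 0.0959) and Gstm3 (0.0547). Depth limits Gpx2, Slc7a11 and Ggt1, with 15 or fewer counts over the normal libraries.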
